A study of Nasonia vitripennis with 6 samples.

Results

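The genes described here are the reverse transcriptase and transposon gene models of the parasitoid wasp *Nasonia vitripennis*, that is, genes whose annotation names a reverse transcriptase, a transposon, a transposase, a retrotransposon, a Gag or Pol protein or an integrase. In the official gene set, 1753 of 36329 genes carried such an annotation. Of these, 587 had at least 1 read in the venom gland (VG) or the ovary, or 33.5%, against 54.7% of all genes (19854), and the other 1166 had none. RNA-seq was performed on 3 VG and 3 ovary libraries from the strain Lab II. Females were mated, had been exposed to hosts and were 1 to 3 days old, and tissue of 40 to 50 individuals was pooled for each library. Genotype, age and exposure were the same for both tissues, so the contrast is between organs of the same kind of female.

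Transposable elements are DNA sequences that can move within a genome. Retroelements do so through an RNA copy, which a reverse transcriptase turns back into DNA, and they are split into LTR elements, with Gag and Pol proteins and an integrase, and non-LTR (LINE-type) elements, which use an endonuclease and a reverse transcriptase. DNA transposons are cut out and reinserted by a transposase. In the insect germ line, small piRNAs bound to Piwi proteins such as Aubergine silence these elements. RNA from a transposon gene model may come from the element itself or from a cellular gene that carries part of it, and the annotation does not separate these. Copies of an element can be nearly identical, so reads could be split or lost between copies when the authors counted them, and the value of a single gene model is uncertain to that extent.

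Values are normalised counts, that is, reads divided by a size factor for the library, and they are not divided by gene length, so levels of different genes are not compared per length here. The authors deposited the mean of each tissue. Reads of the single libraries, called a, b and c within each tissue, were recovered from these means for 575 of the 587 genes. Size factors were 0.525, 0.450 and 0.287 for VG a, b and c, against 2.58, 2.47 and 2.30 for ovary a, b and c. Thus 1 read weighed most in VG c, and a VG read weighed more than an ovary read. The study lists similar read totals for both tissues, so the size factors do not stand for sequencing depth. The study describes a VG library with more ribosomal RNA reads than the others and the lowest share of reads assigned to genes. VG c had the lowest size factor, but the means carry no replicate number, and whether VG c is that library was not tested. Genes with the word venom in their annotation summed to 586437 in the VG, against 8454 in the ovary (30 genes, 22 higher in the VG). Venom genes of the study with other annotations are not in this sum, and at least 1 of them alone exceeded it in the VG. Ovary markers (vasa, nanos, oskar, Piwi proteins and the like) summed to 574 in the VG, against 75409 in the ovary (9 genes, 0 higher in the VG). Fat body markers summed to 116499 in the VG, against 9202 in the ovary (16 genes, 10 higher in the VG, 2 at 0 in the VG), and muscle markers to 10784 in the VG, against 22185 in the ovary (12 genes, 7 higher in the VG, 1 at 0 in the VG). Whether these markers have a part in the results below was not tested. In such bulk libraries, fewer cells of a type and less RNA per cell cannot be told apart.

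Most of the 587 genes had few counted reads. Their mean over both tissues reached 5 normalised counts in 85 genes (14.5%), against 58.9% of all genes with a read. Among these 85, reads per library were known in both tissues for 73, which were tested with limma on log2(normalised count + 3), with Benjamini-Hochberg adjustment over all 4620 genes that could be tested. Expression was higher in the VG for 49 of the 73, or 67.1%, against 47.9% of all genes tested. It was higher in the ovary for 14, or 19.2%, against 22.9% of all genes tested. The remaining 10 did not pass at an adjusted p-value of 0.05. All VG libraries lay above all ovary libraries for 50 of the 73 (68.5%), against 50.8% of all genes tested, and below all of them for 14 (19.2%), against 25.2%. Reads could be recovered up to a higher mean in the VG (1000) than in the ovary (200), which by construction keeps more VG-high genes. With both means held to at most 200, 43 of 67 genes (64.2%) were higher in the VG, against 41.2% of all genes, and 14 (20.9%) were higher in the ovary, against 26.3%. A gene that reached the minimum mean through its high tissue alone was bound to differ, so these counts describe the list and are not evidence on their own.

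The direction of the list also rests on the scaling. The size factors take most genes as equal between the tissues, and the median log2 fold of all genes was -0.05. Scaled instead to the total of each tissue, where venom genes take much of the VG, every VG value fell by 2.37 on the log2 scale relative to the ovary. Under that scaling limma called 28 genes higher in the VG, and 26 were ovary-high. It moves every gene toward the ovary, and the shares of all genes under it are not given here. These counts thus do not compare the list with other genes. The direction turned for 8 of the 63 called genes, all with a limma difference of at most 1.24 at first: 3 NOF-FB genes, 2 TNT 1-94 genes, 2 transposase genes and 1 reverse transcriptase gene. Group counts under it are given below where the balance turned, and the F52C9.6 group kept 6 of 6 higher in the VG.

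Tissue means cover the genes too abundant for recovery as well. Of 172 genes with enough reads, 80 (46.5%) were at least 4-fold higher in the VG, against 23.0% of all genes. In the other direction, 15 (8.72%) were at least 4-fold higher in the ovary, against 16.9% of all genes. At 2-fold, the counts were 108 (62.8%), against 34.8%, and 25 (14.5%), against 31.1%. The 2-fold VG counts can include genes without a VG read, because the floor set for the VG can exceed a low ovary mean by 2-fold. Scaled to tissue totals, 32 genes were at least 4-fold VG-high and 51 ovary-high. Shares of all genes under that scaling, which moves every gene toward the ovary, are not given here. The median log2 fold of VG over ovary was 2.44 for the 78 genes that had reads in both tissues and reached a mean of 5. It was -0.05 for 11369 genes under the same filter. When scaled to tissue totals, the median of the 78 genes was 0.0719. That scaling shifts every gene by the same amount, so the distance between the list and all genes is unchanged. Low genes leaned to the VG in the whole table, so the medians were also set side by side by level. Between 5 and 20 normalised counts the median was 2.44 for these genes (n = 43), against 1.47 for other genes. Between 20 and 100 it was 2.72 (n = 12), against 0.55, and from 100 upwards 1.22 (n = 23), against -0.32. These medians are over genes that passed the minimum mean, as above, and were not tested.

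**Figure D1:**
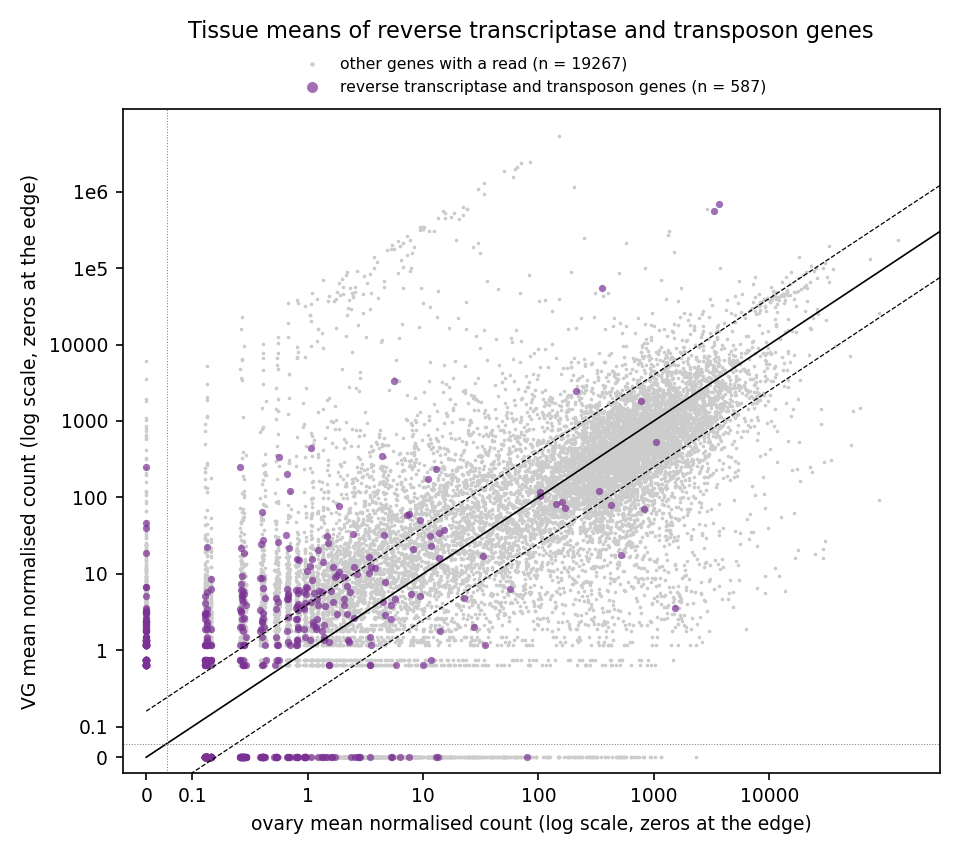
Mean normalised count of each gene in the VG (vertical axis) and the ovary (horizontal axis), both on log scales with zeros drawn at the edge; the solid line marks equal means and the dashed lines a 4-fold difference. Most of the 587 reverse transcriptase and transposon genes (purple) lie at the lower left, and 3 of them lie far above the rest, with VG means between 55585 and 694332.

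Among the genes annotated only as reverse transcriptase, 3 far exceeded all others. Nasvi2EG034404 averaged 694332 in the VG and 3699 in the ovary. Nasvi2EG033881 averaged 551798 in the VG and 3350 in the ovary. Nasvi2EG033889 averaged 55585 in the VG and 358 in the ovary. They stood at ranks 12, 18 and 110 among all genes in the VG, and at ranks 487, 581 and 5082 in the ovary. Their means are too high for reads per library to be recovered, so no test or error can be given for them here. The log2 folds of VG over ovary were 7.55, 7.36 and 7.28, nearly the same in genes whose VG means differ by an order of magnitude.

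These 3 genes made up nearly the whole sum of the list in the VG. All 587 genes took 2.38% of the VG sum and 0.136% of the ovary sum, of which the 3 genes took 2.36% and 0.0695%. Without them, the other 584 genes summed to 13118 in the VG, against 7111 in the ovary. As shares of the tissue sums the order was the reverse, 0.0238% of the VG and 0.0667% of the ovary. The ovary level of the 3 genes was also expressed as a percent of their VG level. It was 0.533% for Nasvi2EG034404, 0.607% for Nasvi2EG033881 and 0.644% for Nasvi2EG033889. In the VG, 117 further genes reached a mean of 50000 or more, and for these the median was 0.00681%, with a range of 0.00196% to 56.6%. Of these, 80 lay below the 3 genes.

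Other reverse transcriptase genes were found on both sides. Nasvi2EG019417 averaged 3353 in the VG and 5.60 in the ovary, where the libraries had 5.03, 5.67 and 6.09. Its log2 fold of 9.23 was larger than those of the 3 most abundant genes. Nasvi2EG005363, annotated as a reverse transcriptase with a protease, averaged 2485 in the VG and 212 in the ovary (log2 fold 3.55). In the opposite direction, Nasvi2EG006879 had 85.8, 35.5 and 118 in the VG libraries, against a mean of 422 in the ovary (log2 fold -2.40). These genes exceeded a recovery limit in at least 1 tissue and were not tested.

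Of the 9 such genes tested with limma, 7 were higher in the VG and 2 in the ovary (1 and 2 scaled to tissue totals). Nasvi2EG022640 had 7.63, 4.44 and 6.97 normalised counts in the VG libraries, against 51.5, 57.1 and 61.7 in the ovary libraries, with no overlap (limma adjusted p = 0.000114, log2 difference -2.69 ± 0.25, SE). Nasvi2EG008991, annotated as reverse transcriptase and recombinase, had 1.91, 0 and 3.49 in the VG, against 11.6, 11.7 and 18.7 in the ovary (limma adjusted p = 0.00339). Here and below, limma differences are VG minus ovary on the log2(normalised count + 3) scale, which understates the change of low genes. The lowest adjusted p-value of the 7 VG-high genes belonged to Nasvi2EG017148, chosen after its values were seen, with 22.9, 40.0 and 34.9 in the VG, against 1.55, 0.405 and 0 in the ovary (limma adjusted p = 0.000121). Log2 folds of the 7 ran from 1.87 to 5.64.

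Another group was annotated as endonuclease and reverse transcriptase, the enzyme pair of LINE-type elements. Of the 5 tested, limma called 4 higher in the VG and 0 in the ovary (4 and 1 scaled to tissue totals). Under the size factors, 47.9% and 22.9% of all genes tested were called, and 5 genes are too few to set against these shares. Nasvi2EG034141 had 80.1, 53.3 and 62.7 in the VG, against 0.387, 0.810 and 0 in the ovary (limma adjusted p = 2.21e-05, log2 difference 4.32 ± 0.26, SE). Nasvi2EG022110 had 238, 631 and 136 in the VG, against 0, 0.405 and 1.30 in the ovary (limma adjusted p = 8.59e-05). All its VG libraries exceeded the ovary, but VG b held several times the level of VG a and VG c. The most abundant, Nasvi2EG028731, averaged 1802 in the VG and 771 in the ovary (log2 fold 1.22) and could not be tested. Nasvi2EG016187 overlapped between the tissues, with 11.4, 26.6 and 10.5 in the VG and 14.7, 13.0 and 13.9 in the ovary.

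Named LINE-type elements (R1, R2, Lian-Aa1 and others) numbered 82 genes, of which 5 reached the minimum mean. R1 and R2 are insect elements that insert into the genes of the large ribosomal RNA, and Lian-Aa1 was described from the mosquito *Aedes aegypti*. Limma called 3 VG-high, with log2 folds of tissue means from 2.40 to 4.17, and 1 ovary-high (1 and 1 scaled to tissue totals). The ovary-high R1 gene, Nasvi2EG020907, had no read in any VG library, against 9.29, 14.6 and 16.5 in the ovary libraries, which is at least 3.86-fold lower in the VG (limma adjusted p = 0.000267). A fold against a tissue without reads is set here against 3 reads over its libraries, and such limits cover counting error only. Another R1 gene, Nasvi2EG029757, had 0, 2.22 and 62.7 in the VG libraries, against 0.387, 0.405 and 0 in the ovary libraries. Its VG mean rests on VG c alone, the groups overlapped, and limma did not call it (adjusted p = 0.212). A further R1 gene, Nasvi2EG034454, was also highest in VG c, with 3.81, 8.88 and 24.4 in the VG, against 1.16, 1.62 and 2.17 in the ovary (limma adjusted p = 0.0342). It passed without VG a or VG c, and missed the threshold without VG b or without any ovary library (limma adjusted p between 0.00967 and 0.103). These R1 genes were chosen after their values were seen, and whether ribosomal RNA reads in a VG library have a part in them was not tested.

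The gene models named for the LTR element TNT 1-94, a copia-type element first described in tobacco, were split most evenly. This group, with other copia genes, held 48 genes, 14 of them with a mean of at least 5. Of 13 tested, limma called 7 higher in the VG and 6 in the ovary (4 and 7 scaled to tissue totals). Under the size factors, 47.9% and 22.9% of all genes tested were called. The median log2 fold was 0.01 (n = 10), with members on both sides at large distances from it. Nasvi2EG014637 had no read in the VG, against 94.8, 73.3 and 72.6 in the ovary libraries, at least 23.0-fold lower in the VG (limma adjusted p = 1.12e-05). Nasvi2EG023084 had the opposite pattern, with 400, 60.0 and 296 in the VG libraries, against no read in the ovary, at least 580-fold higher in the VG (limma adjusted p = 0.000250). Its highest VG library was 6.68-fold above its lowest. Here VG b was the low library, whereas it was the high one for Nasvi2EG022110.

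Further TNT 1-94 genes fell on either side. Nasvi2EG024518 had 3.81, 2.22 and 0 in the VG, against 25.9, 27.9 and 29.6 in the ovary (limma adjusted p = 0.000488). Nasvi2EG011624 had 0, 2.22 and 0 in the VG, against 6.19, 15.4 and 13.9 in the ovary (limma adjusted p = 0.00359). Nasvi2EG011707 had no VG read, against 14.7, 16.2 and 8.26 in the ovary (limma adjusted p = 0.000391). In all 3 genes each ovary library exceeded each VG library. Nasvi2EG035423 was found only in the VG, with 36.2, 8.88 and 10.5 there (limma adjusted p = 0.00249). The most abundant in the ovary, Nasvi2EG011604, had 22.9, 8.88 and 20.9 in the VG, against an ovary mean of 523 (log2 fold -4.90, not tested). Over the called genes of this group with reads in both tissues, log2 folds of tissue means ran from 0.97 to 4.97 on the VG side and from -3.998 to -0.95 on the ovary side.

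Of the other LTR genes (Gag, Pol, Ty3 and BEL), 10 of 61 reached the minimum mean, and limma called 6 of 9 higher in the VG and 1 in the ovary. Gag forms the particle in which the element's RNA is copied, and Pol carries the enzymes. Nasvi2EG029868, a Pol polyprotein fragment, had 36.2, 46.6 and 55.8 in the VG libraries, against no read in the ovary, at least 106-fold higher in the VG (limma adjusted p = 2.52e-05). Nasvi2EG019487, a Gag-Pol gene, had 1.91, 0 and 0 in the VG, against 9.29, 13.0 and 7.83 in the ovary (limma adjusted p = 0.00183). A second Gag-Pol gene, Nasvi2EG004723, had 55.3, 97.7 and 55.8 in the VG, against an ovary mean of 822 (log2 fold -3.56, not tested). The BEL gene Nasvi2EG029687, chosen after its values were seen, was also VG-high, with 11.4, 31.1 and 13.9 in the VG, against 0, 0.405 and 0.435 in the ovary (limma adjusted p = 0.000747). None of the 50 genes annotated as integrase, which joins the DNA copy to the chromosome, reached a mean of 5. They summed to 68.1 normalised counts in the VG, against 19.5 in the ovary, from 83 and 144 reads. As shares of the tissue sums the order was the reverse, 0.000123% of the VG and 0.000183% of the ovary.

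Transposase genes of DNA transposons were called higher in the VG for 10 of 17 tested and higher in the ovary for 3 (6 and 7 scaled to tissue totals). The shares of all genes tested were 47.9% and 22.9% under the size factors, and the difference from them was not tested. Genes named for P, Tc3 and piggyBac elements were among the VG-high ones. P is the *Drosophila* element of hybrid dysgenesis, Tc3 is a *Caenorhabditis elegans* element and piggyBac was first found in a moth. Nasvi2EG016367 (P) had 137, 91.0 and 139 in the VG, against 0, 0.810 and 1.30 in the ovary (limma adjusted p = 1.76e-05, log2 difference 5.07 ± 0.29, SE). Nasvi2EG026797 (Tc3) had 36.2, 31.1 and 27.9 in the VG, against 1.94, 1.62 and 0.870 in the ovary (limma adjusted p = 7.08e-05). Nasvi2EG015842 (Tc3) had 22.9, 24.4 and 31.4 in the VG, against 0, 0.810 and 0.870 in the ovary (limma adjusted p = 7.88e-05). The VG libraries of these genes lay close to each other and well above the ovary. Nasvi2EG023687 (piggyBac) had 151, 484 and 125 in the VG, against 0.774, 0 and 0 in the ovary (limma adjusted p = 8.14e-05), and VG b was again the highest library. The ratio of its tissue means, log2 fold 9.94, was the largest among genes with a mean of at least 5 and reads in both tissues, and it rests on 2 ovary reads.

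Tigger genes, named for a pogo-like DNA transposon first described in the human genome, were higher in the ovary or not called, of those tested with limma. Nasvi2EG019654 had 0, 0 and 3.49 in the VG, against 39.5, 26.3 and 37.0 in the ovary (limma adjusted p = 0.000317). Nasvi2EG001070 had 85.8, 95.5 and 83.6 in the VG, against 155, 149 and 172 in the ovary (limma adjusted p = 0.00331). Nasvi2EG019497 had 513, 535 and 526 in the VG, against an ovary mean of 1046 (log2 fold -0.99, not tested). Nasvi2EG003128 overlapped between the tissues, with 114, 77.7 and 118 in the VG and 101, 98.4 and 108 in the ovary. An unnamed transposase, Nasvi2EG018245, had 72.4, 68.8 and 76.7 in the VG, against 189, 150 and 168 in the ovary (limma adjusted p = 0.000838). The ovary libraries lay above the VG libraries in each called gene of this paragraph, by much smaller ratios in Nasvi2EG001070 and Nasvi2EG018245 than in Nasvi2EG019654.

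Genes annotated as the large protein of NOF-FB, a foldback element of *Drosophila*, numbered 47, of which 9 were tested and limma called 6 higher in the VG and 1 in the ovary, but 2 and 6 scaled to tissue totals. Nasvi2EG029170 had 198, 302 and 199 in the VG, against 12.0, 13.0 and 13.9 in the ovary (limma adjusted p = 2.46e-05, log2 difference 3.86 ± 0.24, SE). By contrast, Nasvi2EG000220 had 3.81, 0 and 6.97 in the VG, from 4 reads, against an ovary mean of 1527. Its log2 fold of -8.73 was the lowest in the list, and it was not tested. Nasvi2EG008752 had 111, 118 and 132 in the VG, against an ovary mean of 332 (log2 fold -1.47, not tested). The 6 VG-high NOF-FB genes had log2 folds of tissue means from 1.29 to 4.17, and the called ovary-high one had -0.80. The same annotation thus covers genes far higher in the VG and genes far higher in the ovary.

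The transposon-derived protein F52C9.6, named for a predicted *C. elegans* gene, was the group with the highest median, a log2 fold of 7.40 over the 5 genes with reads in both tissues. Of 11 such genes, 6 reached the minimum mean, and limma called 6 of 6 higher in the VG. In all, the 11 genes had 1426 reads in the VG, against 67 in the ovary, although the size factors were larger in the ovary. Nasvi2EG029024 had 435, 457 and 429 in the VG, against 1.16, 1.62 and 0.435 in the ovary (limma adjusted p = 7.88e-06, log2 difference 6.78 ± 0.22, SE). Nasvi2EG031204 had 214, 198 and 188 in the VG, against 1.16, 0.810 and 0 in the ovary (limma adjusted p = 8.49e-06). Nasvi2EG019418 had 356, 313 and 366 in the VG, against 2.32, 6.07 and 4.78 in the ovary (limma adjusted p = 1.04e-05). These had the 3 lowest adjusted p-values of the list, and their VG libraries differed little. Nasvi2EG029073 had 80.1, 75.5 and 73.2 in the VG, against 2.32, 2.43 and 0.870 in the ovary (limma adjusted p = 2.30e-05). Nasvi2EG022600 had 34.3, 26.6 and 59.2 in the VG and no ovary read (limma adjusted p = 8.55e-05).

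**Figure D2:**
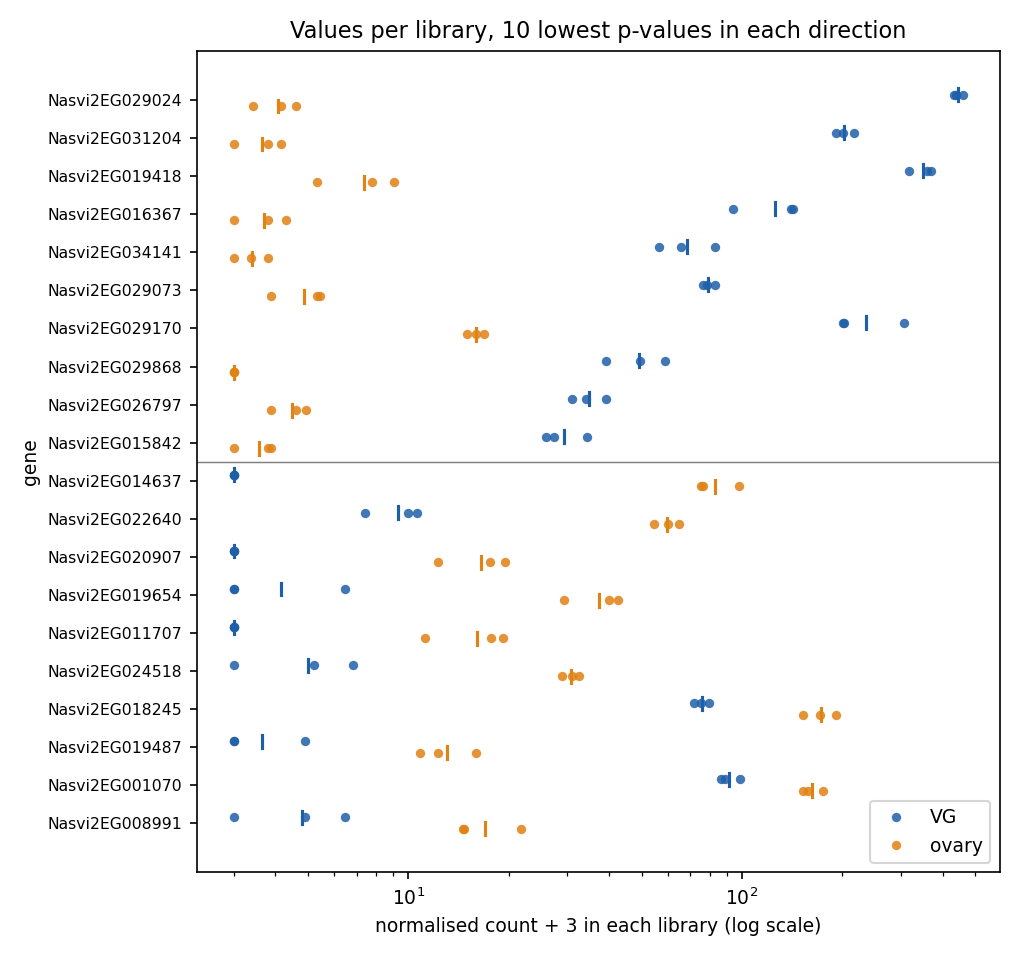
Normalised count + 3 (log scale) in each library for the 10 genes with the lowest limma p-values higher in the VG (above the line) and the 10 higher in the ovary (below the line); points are libraries, VG in blue and ovary in orange, and the vertical ticks are tissue means. No VG library overlaps an ovary library in any of the 20 genes and the tissues lie closest in Nasvi2EG001070 and Nasvi2EG018245.

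**Figure D3:**
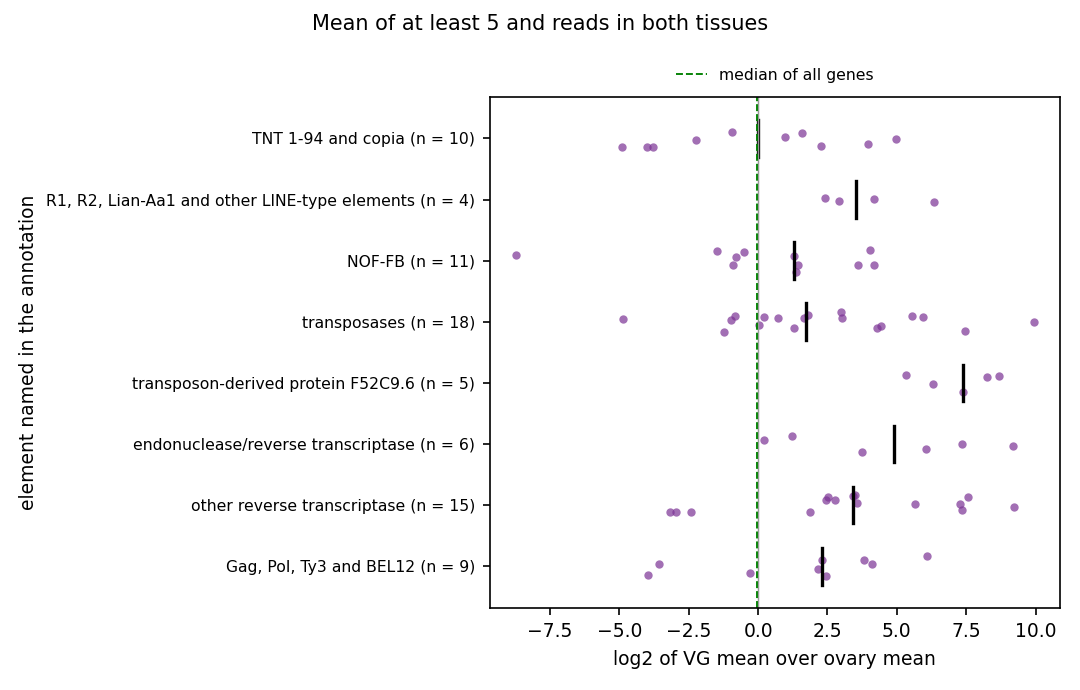
Log2 of VG mean over ovary mean for each gene with a mean of at least 5 and reads in both tissues, grouped by the element named in the annotation; black ticks are group medians and the dashed line is the median of all genes, -0.05. The group medians run from 0.01 for TNT 1-94 and copia to 7.40 for F52C9.6, and 5 of the groups hold genes on both sides of 0.

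Several genes differed widely between libraries of the same tissue. Among 42 genes whose VG mean reached 20 and whose VG reads were known, the median ratio of highest to lowest VG library was 1.53, against 1.59 for 6959 other genes. For 9 of the 42 (21.4%) the ratio was at least 3 or a library had no read, against 13.7% of the other genes. A part of the gene's level or of counting error in this was not tested. VG b was the highest for Nasvi2EG022110 and Nasvi2EG023687, given above. It was also highest for the transposase gene Nasvi2EG014110, with 11.4, 51.1 and 10.5, for the Gag-Pol gene Nasvi2EG027294, with 13.3, 42.2 and 20.9, and for the reverse transcriptase gene Nasvi2EG002944, with 34.3, 51.1 and 10.5. VG b was the lowest for Nasvi2EG023084 and Nasvi2EG006879, and VG c held nearly all reads of Nasvi2EG029757. The ninth gene, Nasvi2EG017183, an endonuclease and reverse transcriptase gene, had 36.2, 35.5 and 10.5. No single VG library was thus high for all of these genes, and over the 42 genes the highest library was VG a for 11, VG b for 17 and VG c for 14, close to the shares of other genes (26.2%, 40.5% and 33.3%, against 24.5%, 40.2% and 35.2%). For the ovary libraries the median ratio was 1.20 over the 11 tested genes with an ovary mean of at least 20. The same mean stands for more reads in the ovary than in the VG, so this ratio is not compared with that of the VG.

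Some of the genes have consecutive numbers. Nasvi2EG019417, the reverse transcriptase gene with a log2 fold of 9.23, is followed by the F52C9.6 gene Nasvi2EG019418, with a log2 fold of 6.30. Likewise Nasvi2EG014796 and Nasvi2EG014797, both NOF-FB genes, had log2 folds of -0.80 and -0.52. Nasvi2EG014796 is the NOF-FB gene called ovary-high, and it missed the threshold without ovary a or without ovary c (limma adjusted p = 0.0700 and 0.0679). Other pairs differed more, such as Nasvi2EG016186 and Nasvi2EG016187 with log2 folds of 2.90 and 0.22, and Nasvi2EG032874 and Nasvi2EG032875 with 1.37 and 2.86. In all, 6 pairs of consecutive numbers had a mean of at least 1 in both genes. The sources do not say whether the numbering follows position on the chromosomes.

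A number of genes were read in 1 tissue only. Reads occurred only in the VG for 128 of 587 genes (21.8%), against 7.17% of all genes with a read, and only in the ovary for 202 (34.4%), against 17.5%. Most of these genes are rare, and among the 502 genes with a mean under 5 the shares were 24.7% for the VG, against 16.5% of all such genes, and 39.6% for the ovary, against 39.5%. With at least 10 reads in 1 tissue and none in the other, 4 genes (0.681%) had VG reads alone, against 0.489% of all genes with a read, and 20 (3.41%) had ovary reads alone, against 3.38%. These shares are near those of all genes. With the larger size factors of the ovary, the same normalised count takes more reads there, so more genes can reach 10 reads. Nasvi2EG032923, a reverse transcriptase gene, had 6.58, 8.50 and 7.83 in the ovary libraries and no VG read. Nasvi2EG024171, annotated as reverse transcriptase and recombinase, had 8.51, 6.48 and 3.91 there and no VG read. Nasvi2EG030210, a copia gene, had 5.42, 3.64 and 6.96 there and no VG read. Their means over both tissues were under 5, so they were not tested, and against the VG floor they were lower in the VG by at least 2.19-fold, 1.81-fold and 1.53-fold.

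The 502 genes with a mean under 5 were also taken as a sum. Of these, 174 rested on 1 read, 313 on at most 3 reads, and the median was 2 reads over all 6 libraries. Their normalised counts summed to 627, 597 and 763 in the VG libraries, against 264, 247 and 235 in the ovary libraries. Other genes with a mean under 5 (7649) also summed higher in the VG, to 10110, 11203 and 10825, against 6200, 5995 and 5777 in the ovary. The VG mean was 2.67 times the ovary mean for the low transposon genes and 1.79 times for the other low genes. As shares of the tissue sums the order was the reverse. The low transposon genes took 0.00120% of the VG and 0.00233% of the ovary, and the other low genes 0.0194% and 0.0562%. The 73 tested genes summed to 3950, 4319 and 3729 in the VG, against 1244, 1157 and 1201 in the ovary. These sums leave out 12 genes above a recovery limit, 6 with the higher mean in the VG and 6 in the ovary.

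**Figure D4:**
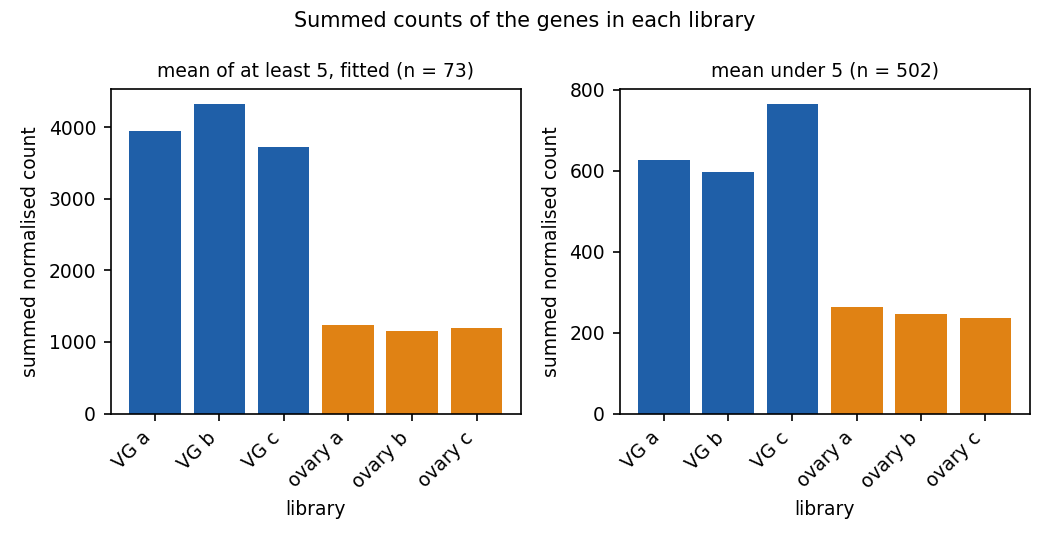
Summed normalised counts in each library, VG in blue and ovary in orange, for the 73 tested genes (left) and the 502 genes with a mean under 5 (right); each bar is 1 library. All VG libraries lie above all ovary libraries in both panels, between 3729 and 4319 against 1157 to 1244 on the left, and between 597 and 763 against 235 to 264 on the right. Counts are scaled by size factors, not by tissue totals, and genes above a recovery limit are not on the left.

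Genes that act on transposons went the other way. Keywords for the piRNA and small RNA pathways found 25 genes, 20 of them with a read. The ovary mean was at least 4-fold higher for 14 of the 20, against 16.9% of all genes, and the VG mean for 0 of 20, against 23.0%. The median log2 fold was -4.26 (n = 18), and 19 of 20 were lower in the VG, the exception being a tudor and KH domain gene, Nasvi2EG003965, with 524 in the VG and 493 in the ovary. Several are germ line genes and are also among the ovary markers given above. Others, such as argonaute-2 (Nasvi2EG026082, 326 in the VG and 1101 in the ovary) and the histone methyltransferase SETDB1 (Nasvi2EG000143, 513 in the VG and 1113 in the ovary), act in somatic cells too. Aubergine, a Piwi protein that cuts transposon RNA, had 2 abundant genes, Nasvi2EG004772 with 163 in the VG and 18321 in the ovary, and Nasvi2EG013964 with 62.1 in the VG, against 16503 in the ovary. The RNA helicase vasa, Nasvi2EG015483, averaged 39.4 in the VG and 9788 in the ovary. Maelstrom, which acts in piRNA silencing, averaged 22.9 in the VG and 7839 in the ovary for Nasvi2EG002883. The tudor domain genes, whose *Drosophila* relatives bind Piwi proteins, included Nasvi2EG016849, with 731 in the VG and 6359 in the ovary, and Nasvi2EG005816, with 15.8 in the VG and 3871 in the ovary. All 6 of these abundant genes were too high in the ovary for reads per library, so no test was made, and their part in the levels of the transposon genes was not tested.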

How the data were processed

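RNA was enriched for poly-A and sequenced as stranded paired-end libraries, 3 from the VG and 3 from the ovary. The authors trimmed reads with fastq-mcf and SolexaQA and mapped them to the published genome with TopHat at its defaults, apart from a first-strand library type. They counted reads on exons with HTSeq in union mode, by strand. The authors then applied DESeq size factors. The sources used here name no genome build. The deposited table holds a signal for each gene and tissue, the mean normalised count over 3 libraries. Its columns of fold changes and p-values from the authors' own comparison were not used.

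Each library adds whole reads divided by its size factor to a mean, so low means were resolved into reads per library. In the VG, 14114 of 14115 means up to 1000 had 1 solution. In the ovary, 11699 of 12126 means up to 200 had 1 solution, 427 had several and were left out. Recovered libraries carry no replicate number, and their letters only name them. Since the deposited unit is not counts, no count model was used. Genes with a mean over the tissues of at least 5 and known reads were tested with limma 3.58.1 (trend, R 4.3.3) on log2(normalised count + 3), at a Benjamini-Hochberg adjusted p of 0.05. An exact permutation test of 3 against 3 libraries cannot go below p = 0.1 and was not used. The procedures were tested on simulated data. Folds of tissue means need at least 10 reads or a mean of 5, and a tissue at 0 was set to 3 reads over its libraries (3.49 in the VG, 0.435 in the ovary).

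Genes were named by rule: the 10 highest means per tissue, the 5 largest and smallest log2 folds with a mean of at least 5, the 10 lowest limma p-values in each direction, up to 10 genes with at least 10 reads in 1 tissue only, and the 6 most abundant genes that act on transposons. Genes outside the rule (Nasvi2EG017148, Nasvi2EG016187, Nasvi2EG029757, Nasvi2EG034454, Nasvi2EG003128, Nasvi2EG029687, Nasvi2EG014110, Nasvi2EG027294, Nasvi2EG002944, Nasvi2EG017183, Nasvi2EG014796, Nasvi2EG014797, Nasvi2EG016186, Nasvi2EG032874, Nasvi2EG032875, Nasvi2EG026082, Nasvi2EG000143 and Nasvi2EG003965) were chosen after their values were seen. The members and lists were chosen with earlier results of these data known, and element groups were formed after the values were seen. The alternatives changed the pseudocount, filter, scaling, limma settings, keywords and libraries. The study describes its 3 libraries per tissue as biological replicates. The limma p-values weigh the tissue difference against the spread between these libraries, moderated over genes. Python 3.11.15, numpy 2.4.6, pandas 2.3.3 and matplotlib 3.10.9 were used.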

Additional observations from a re-analysis of the deposited data

How the results depend on the processing

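The counts of genes called by limma (49 higher in the VG, 14 in the ovary) were 19 and 6 at a minimum mean of 20, 28 and 26 scaled to tissue totals, and 11 and 2 for reverse transcriptase annotations only. Without a filter, 29 were called higher in the ovary. The counts past 4-fold in tissue means (80 in the VG, 15 in the ovary) were 21 and 6 at a minimum mean of 20, 32 and 51 scaled to tissue totals, and 28 and 3 for reverse transcriptase annotations only. The VG count was 52 without reverse transcriptases and 49 for annotations that start with TE, an alternative chosen after seeing the data. Without a filter it was 358. That count can include genes without a VG read, because the VG floor can exceed a low ovary mean by 4-fold. It is therefore not a count of VG-high genes. The ovary count was 25 at 2-fold. The median log2 fold (2.44) was 3.48 for reverse transcriptases, 0.0719 scaled to tissue totals and 1.79 scaled to totals without the 100 highest genes of each tissue. Both scalings shift all genes alike, and shares of all genes under them are not given here. Leaving out 1 library at a time, the limma counts ranged from 43 to 49 in the VG and 12 to 16 in the ovary, the 4-fold counts from 74 to 81 and 11 to 16, and the median from 2.35 to 2.68. Of the 63 called genes, 55 were called without each library in turn. Directions changed only under tissue totals, in 8 genes, 5 of them called. No paired analysis was possible because the recovered libraries carry no replicate number. The weight of a read limits the rare genes, as 1 VG read weighs 0.635 to 1.16 in a tissue mean and 1 ovary read 0.129 to 0.145. Groups of 3 libraries are too small to test for outlying libraries.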
